A study of Homo sapiens with 3 samples.

Results

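The ZNF genes of chromosome 19 were examined for sites of SOX4, a high-mobility-group transcription factor, in BT549 cells. They were taken as the protein-coding genes on chromosome 19 of the RefSeq GRCh38.p14 table whose symbol is ZNF and a number, with or without 1 letter after it. That gave 246 of the 20037 coding genes of the assembled chromosomes, 6 of them with a letter. A further 4 hyphenated symbols of the same form were left out. Of the 246 genes, 19 (7.72%) had a summit within 1 kb of a gene end in any library. The share of all coding genes was 15.1%. With annotated transcription starts counted too, 26 (10.6%) had one, against 16.4%. The remaining 220 had none at either. Of the 26, 5 genes were reached by 2 libraries, ZNF558, ZNF627, ZNF43, ZNF302 and ZNF420, and none was reached by all 3. The 5 genes are 2.03% of the members, against 3.54% of all coding genes.

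SOX4 binding was mapped by ChIP-seq, in which DNA bound to a precipitated protein is sequenced, in the human triple-negative breast cancer line BT549. Its 3 libraries, here replicates 1 to 3, form a single group of cells at passage 5, grown in RPMI medium with serum and insulin and carrying no treatment that the labels spell out. Chromatin was fixed with DSG and formaldehyde and precipitated with 1 SOX4 antibody. The labels do not tell whether separate cultures were used, so the spread among libraries, and any p-value over them, may be technical, and no control precipitation or input was analysed here. Each library has its own list of summits, which are 1-bp positions with a score that is the authors' −log10 of a p or q value. The lists hold 1368, 1713 and 4430 summits, of which 26, 13 and 68 lie on chromosome 19. Read depth is unknown, and all intervals are exact binomial 95% intervals that cover counting error only.

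ZNF genes encode C2H2 zinc finger proteins, which bind DNA through arrays of short zinc-holding loops. Many of those on chromosome 19 also carry a KRAB domain, which recruits the corepressor TRIM28 and, through it, the histone methyltransferase SETDB1 to lay down repressive chromatin, often over transposable elements. The genes arose by repeated local duplication and sit in clusters, so neighbours can share a promoter region and a summit. SOX proteins bind a short core with the letters ACAAAG or ACAATG.

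The sequences below are the 250 bases before the annotated start of the 5 genes reached by 2 libraries and of 3 neighbours whose single summit falls inside that stretch (ZNF829, ZNF527 and ZNF790). They are shown because the results turn on whether these starts lie under a summit. They are from RefSeq on GRCh38.p14, read 5′ to 3′ on the gene's own strand. Capitals mark the 11 bases centred on a summit, and ZNF43 and ZNF302 have none because their summits lie after the start. ZNF420 appears with both of its annotated starts.
ZNF627 (chr19:11597233-11597482, plus strand): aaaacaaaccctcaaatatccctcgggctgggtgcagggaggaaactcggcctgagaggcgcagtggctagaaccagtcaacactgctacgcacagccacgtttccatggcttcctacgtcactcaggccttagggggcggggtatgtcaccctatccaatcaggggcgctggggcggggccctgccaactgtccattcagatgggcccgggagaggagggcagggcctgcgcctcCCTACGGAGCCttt
ZNF558 (chr19:8832305-8832554, minus strand): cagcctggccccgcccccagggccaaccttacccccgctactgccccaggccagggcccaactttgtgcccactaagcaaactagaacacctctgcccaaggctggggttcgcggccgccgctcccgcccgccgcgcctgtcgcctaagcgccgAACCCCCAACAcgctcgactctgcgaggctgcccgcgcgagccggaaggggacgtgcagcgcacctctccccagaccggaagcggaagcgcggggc
ZNF43 (chr19:21836183-21836432, minus strand): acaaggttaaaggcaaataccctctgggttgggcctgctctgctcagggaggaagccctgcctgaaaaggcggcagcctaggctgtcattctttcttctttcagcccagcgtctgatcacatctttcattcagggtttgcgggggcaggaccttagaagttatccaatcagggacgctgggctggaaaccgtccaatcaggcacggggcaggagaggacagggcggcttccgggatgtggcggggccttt
ZNF302 (chr19:34677428-34677677, plus strand): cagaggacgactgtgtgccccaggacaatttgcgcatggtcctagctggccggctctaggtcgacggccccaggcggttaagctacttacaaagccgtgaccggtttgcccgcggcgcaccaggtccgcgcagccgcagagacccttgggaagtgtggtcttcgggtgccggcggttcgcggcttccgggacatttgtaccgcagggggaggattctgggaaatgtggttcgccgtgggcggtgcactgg
ZNF420 (chr19:37078183-37078432, plus strand): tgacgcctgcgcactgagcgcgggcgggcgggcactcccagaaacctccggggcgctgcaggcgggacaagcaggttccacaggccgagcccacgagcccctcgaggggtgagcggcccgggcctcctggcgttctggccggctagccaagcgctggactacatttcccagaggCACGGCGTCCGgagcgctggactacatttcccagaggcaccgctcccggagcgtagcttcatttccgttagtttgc
ZNF420 (chr19:37077972-37078221, plus strand): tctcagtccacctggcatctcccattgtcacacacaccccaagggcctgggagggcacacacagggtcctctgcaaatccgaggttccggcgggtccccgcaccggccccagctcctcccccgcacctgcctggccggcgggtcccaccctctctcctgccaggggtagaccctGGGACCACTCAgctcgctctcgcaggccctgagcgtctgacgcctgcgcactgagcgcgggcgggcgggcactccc
ZNF829 (chr19:36916040-36916289, minus strand): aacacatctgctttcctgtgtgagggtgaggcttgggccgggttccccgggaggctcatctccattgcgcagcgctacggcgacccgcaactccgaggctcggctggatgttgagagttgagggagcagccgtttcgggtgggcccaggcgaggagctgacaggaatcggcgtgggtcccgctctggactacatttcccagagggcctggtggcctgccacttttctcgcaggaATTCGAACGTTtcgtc
ZNF527 (chr19:37370849-37371098, plus strand): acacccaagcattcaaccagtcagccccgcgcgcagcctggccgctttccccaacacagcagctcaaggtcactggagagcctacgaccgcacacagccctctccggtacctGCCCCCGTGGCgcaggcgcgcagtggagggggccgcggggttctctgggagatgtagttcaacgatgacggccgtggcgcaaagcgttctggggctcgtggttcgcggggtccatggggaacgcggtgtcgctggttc
ZNF790 (chr19:36838388-36838637, minus strand): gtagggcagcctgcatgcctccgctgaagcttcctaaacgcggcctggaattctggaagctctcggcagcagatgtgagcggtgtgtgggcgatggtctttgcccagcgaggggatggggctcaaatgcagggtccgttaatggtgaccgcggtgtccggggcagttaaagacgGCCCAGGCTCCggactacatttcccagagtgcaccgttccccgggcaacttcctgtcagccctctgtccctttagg

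The best supported gene by gene ends was ZNF627, which encodes a KRAB zinc finger protein. It spans chromosome 19, 11597483 to 11619161. Its replicate 2 summit lay 9 bp before the start with a score of 3.58, and its replicate 3 summit lay 210 bp after the start with a score of 4.93. These stood at the 7.24th and 37.0th percentiles of their lists, so the first is a weak summit. The nearest replicate 1 summit was 1327 kb away. The summits of replicates 2 and 3 were 219 bp apart, so both lie at the same start but over 200 bp from each other. ZNF627 was the 1 member with summits of at least 2 libraries within 1 kb of a gene end (0.407%, interval 0.0103 to 2.24%), against 3.2% of all coding genes.

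Annotated starts that lie inside the gene span added the other 4. ZNF558, which encodes a KRAB zinc finger protein known to act at transposable elements, had summits of replicate 2 at 91 bp before and of replicate 3 at 49 bp after a start, with scores of 4.55 and 4.87. Both lie over 5 kb from the ends of ZNF558 and within 1 kb of an end of MBD3L1, a methyl-CpG-binding-domain-like gene, so the summits are shared with a gene that is no ZNF gene. In ZNF43, summits from replicates 1 and 3 fell 153 and 176 bp after a start, with scores of 5.85 and 4.87. These were 23 bp apart, the closest spacing of the 5 genes, and 16036 and 16059 bp from the nearer end of the gene, in the gene body. ZNF302 had them at 37 bp (replicate 1, score 3.22) and 241 bp (replicate 3, score 6.81) after a start, 204 bp apart, and within 1 kb of an end of the secretoglobin gene SCGB2B2. The replicate 1 summit stood only at the 2.92nd percentile of its list, and the replicate 3 summit at the 73.9th.

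ZNF420, also known as APAK and described as a negative regulator of p53-driven cell death, had 1 summit at each of its annotated starts. The replicate 1 summit lay 71 bp before the start at 37078433, with a score of 6.63. The replicate 3 summit lay 71 bp before the start at 37078222, with a score of 4.05. They were 211 bp apart and over 50 kb from either end of the gene. Counted by gene end or annotated start, 5 of 246 members were reached by at least 2 libraries (2.03%, interval 0.663 to 4.68%), against 3.54% of all coding genes. The combination was replicates 2 and 3 for ZNF558 and ZNF627, and replicates 1 and 3 for the other 3 genes. Every one of the 5 needed replicate 3, and without it the count was 0.

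**Figure D1:**
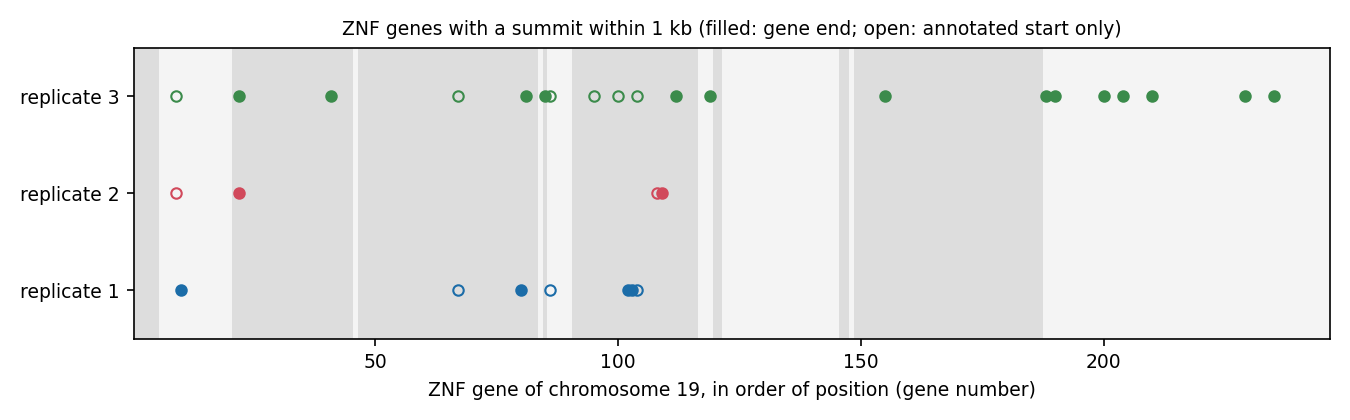
Members with a summit within 1 kb, 1 row per library, with the 246 genes in order of position along the horizontal axis. Filled circles are summits at a gene end, open circles summits at an annotated start only, and the grey bands separate groups of genes over 1 Mb apart. By both kinds of circle together, the group of 26 genes from ZNF565 to ZNF573 has 8 genes reached, 4 of them at a gene end, the last group of 59 genes has 7, all at a gene end, and the run of 24 genes from ZNF575 to ZNF296 has none.

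The members fell into 16 groups when split wherever neighbours were over 1 Mb apart, as the plot of members in order of position shows. By gene end or annotated start, for which all coding genes had 16.4%, the group from ZNF565 to ZNF573 (chromosome 19, 36182060 to 37779586) had 8 of 26 genes with a summit (30.8%). By gene ends alone it had 4 of 26 (15.4%), against 15.1% of all coding genes, so its higher share rests on the annotated starts, which were added to the gene ends after the data were seen. The last group, from ZNF628 to ZNF446, had 7 of 59 (11.9%) by either measure, and the group from ZNF101 to ZNF254 had 3 of 37 (8.11%). The group from ZNF175 to ZNF331 had 1 of 39 (2.56%), and the group from ZNF575 to ZNF296 had 0 of 24. The groups were picked out after their values were seen, so their order is a description. Inside the group of 26 lie 4 other coding genes, 3 of them the zinc finger genes ZFP14, ZFP30 and ZFP82, and of the 4 only ZFP14 had a summit.

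Within the group of 26, the 8 genes were ZNF529, ZNF790, ZNF829, ZNF568, ZNF420, ZNF875, ZNF527 and ZNF793. ZNF829 and ZNF568 lie head to head, 41 bp apart, and shared 1 replicate 1 summit with a score of 5.19. It lay 11 bp before an annotated start of ZNF829 and 282 bp before that of ZNF568, whose mouse counterpart silences a placental promoter of Igf2. ZNF527 had a replicate 2 summit 133 bp before its start (score 4.87), and ZNF875, also called HKR1, had one 1 bp after an annotated start (score 4.64). Replicate 3 gave ZNF790 (71 bp before a start, score 5.17), ZNF793 (84 bp from a gene end, score 4.72) and ZNF529 (1 bp before a start, score 2.74). The ZNF529 summit is among the weakest of its list, above 0.271% of the summits. Thus each library contributed to this group, and ZNF420 was its only gene with 2 libraries.

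The strongest summits near any of the 26 genes lay between coding genes. Around chromosome 19, 37293557 to 37293650, all 3 libraries had a summit, with scores of 15.3, 12.04 and 13.4 in replicates 1 to 3. These stood at the 88.1st, 87.7th and 96.6th percentiles of their lists. The site is 44.8 to 44.9 kb from ZNF383 and 19.2 to 19.3 kb from ZNF875, with no coding gene closer. A further site of replicates 1 and 2 lay under 1 kb away, at 37294420 and 37294439, with scores of 9.1 and 7.88. No member's start or end was within 1 kb of either site, so they are not in the counts above.

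Outside that group, 14 further members were reached by 1 library each, and 12 of them had only replicate 3. Replicate 1 gave ZNF317 (194 bp after the start, score 7.56, the highest score at any member) and ZNF675 (237 bp after the start, score 4.47), whose product is known as an inhibitor of TRAF6 signalling. Replicate 3 gave ZNF587 (162 bp after the start, score 6.05), ZNF135 (5 bp after, 5.48), ZNF614 (46 bp after, 5.36), ZNF443 (368 bp after, 4.77), ZNF507 (178 bp after, 4.23) and ZNF264 (142 bp after, 4.07). It also gave ZNF780A (169 bp after, 3.92), ZNF548 (323 bp after, 3.72) and ZNF681 (301 bp after, 3.51), whose summit also lies 94 bp from an end of RPSA2. ZNF471 had a summit 151 bp from a gene end, with a score of 5.17. Like the summit of ZNF681, a further pair of summits lay nearer to another gene. That of ZNF628 was 593 bp from its end and 108 bp from NAT14, an acetyltransferase-like gene, and that of ZNF524, which encodes a telomere-binding zinc finger protein, was 142 bp from its end and 85 bp from FIZ1. The 11 of these genes with a summit within 1 kb of a known start all had it after the nearest start, on the transcribed side. ZNF135 has a second annotated start, and its summit lies 38 bp before that one, at -38. In the group of 26 genes most summits lay before the nearest start. Over all members and libraries, 18 of 28 pairs of a member and a library had the summit after the start (64.3%). All coding genes had 59.8%.

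By gene ends, the shares of members with a summit were 1.63% in replicate 1 (4 of 246, interval 0.445 to 4.11%), 0.813% in replicate 2 (2 genes, 0.0986 to 2.91%) and 5.69% in replicate 3 (14 genes, 3.15 to 9.36%). All coding genes had 3.07%, 2.76% and 13.3% in the same lists. For any library the share of members was 7.72% (4.71 to 11.8%), against 15.1% of all coding genes. The members thus lay below the background in each list, but the intervals of replicates 1 and 2 include it. Summits of all 3 libraries were at 0 members, against 0.838% of all coding genes. By annotated starts alone, 23 of the 216 members with a known start were reached (10.6%, interval 6.87 to 15.5%), against 16.3% of the 15842 coding genes with one. The shares were 3.24%, 1.85% and 7.87% in replicates 1 to 3, against 3.28%, 2.72% and 14.4%, so replicate 1 was close to its background by this measure. At least 2 libraries reached 2.31% of these members against 3.21%, and 3 libraries reached 0 against 0.802%. The last genes inside the 1 kb window were ZNF443 at 368 bp and ZNF628 at 593 bp, and the next outside were the ends of ZNF302 at 1736 and 1940 bp, so few genes sit near the threshold.

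The low share was common to the chromosome. The other 1205 coding genes of chromosome 19 had 1.16%, 0.415% and 4.23% in replicates 1 to 3, below the members in 3 of 3 libraries. The members were higher by 0.774 percentage points on average (SD 0.594, n = 3), with an exact paired permutation p of 0.25, two-sided, the smallest that 3 libraries allow. With annotated starts added, the members had 2.85%, 1.63% and 8.13%, against 3.4%, 3.02% and 14.5% of all coding genes, 16.4% of which had a summit of any library and 0.938% of all 3. The other genes of the chromosome then had 1.16%, 0.415% and 4.4%, and the mean difference from them was 2.21 percentage points (SD 1.34, exact paired p = 0.25). The direction turned around when only summits at or above the median score of their list were kept, by gene ends, with a mean difference of -0.479 percentage points. Among the 24 chromosomes, chromosome 19 had the second lowest share of coding genes with a summit of any library, 5.51%, after chromosome Y with 0. Chromosome X was close, with 5.78%, and in replicates 1 to 3 alone chromosome 19 ranked 5th, 3rd and 4th from the lowest.

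ZNF genes of other chromosomes were reached more often than the members in 3 of 3 libraries. Of those 263 genes, 5.32%, 4.56% and 17.9% had a summit within 1 kb of an end in replicates 1 to 3. The mean difference, members minus ZNF genes elsewhere, was -6.54 percentage points (SD 4.88, n = 3, exact paired permutation p = 0.25, two-sided, the smallest possible). The ZNF genes elsewhere were also above all coding genes for any library, with 21.7% (16.8 to 27.1%) against 15.1%. Chromosome 10 had 7 of 16 (43.8%, against 17.6% of all its coding genes) and chromosome 1 had 7 of 20 (35.0%, against 20.2%). Chromosome 7 had 6 of 35 (17.1%, against 16.6%) and chromosome 16 had 4 of 30 (13.3%, against 9.95%), both nearer to the share of their chromosome. Chromosomes 2, 4 and 22 had 0 of 9, 0 of 8 and 0 of 4. Leaving out the ZNF genes of chromosome 8, which is dense in summits, left a mean difference of -6.13. ZNF286A on chromosome 17 was among the 4 reached by all 3 libraries, at 139, 91 and 207 bp, with scores of 11.3, 8.64 and 7.2, while no member reached 3 (0 of 246, interval up to 1.49%).

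**Figure D2:**
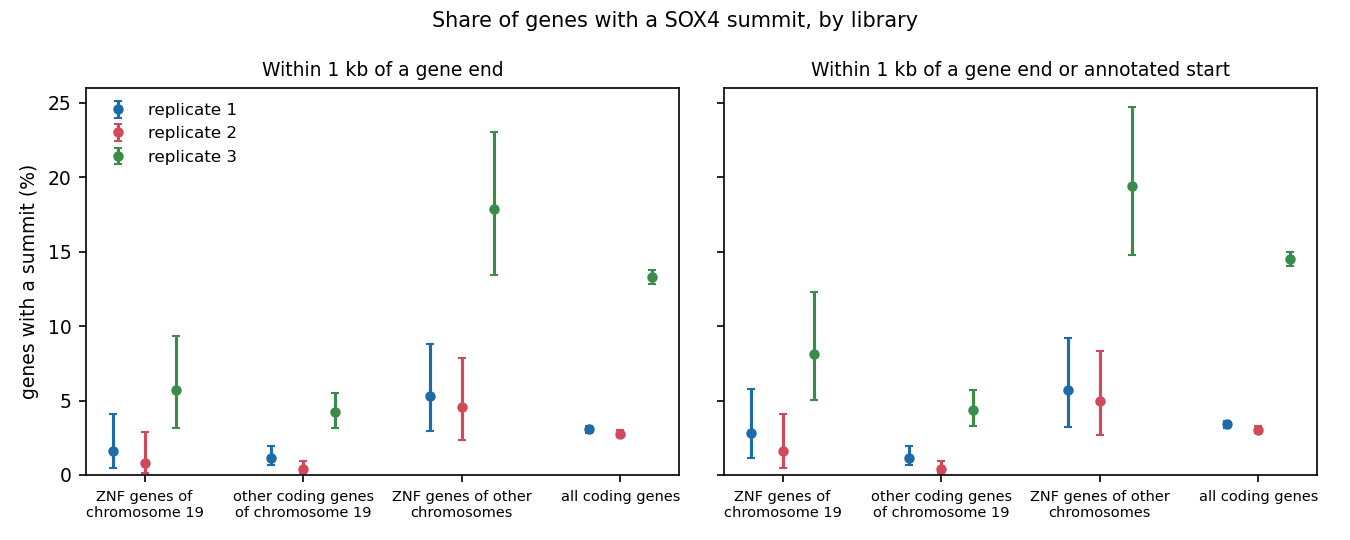
Share of genes with a summit within 1 kb of a gene end (left) and of a gene end or annotated start (right), in percent. Points are libraries and bars are exact 95% intervals. In each library the members lie between the other coding genes of chromosome 19 and the ZNF genes elsewhere, for example at 5.69% against 4.23% and 17.9% in replicate 3.

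Distances to the nearest summit were much like those of all coding genes in replicates 1 and 3. The median distance from a gene end to the nearest summit was 889 kb in replicate 1, 2053 kb in replicate 2 and 169.7 kb in replicate 3. All coding genes had medians of 911, 1023 and 154.6 kb, so the members' median was clearly longer in replicate 2 alone, which was not tested. The medians of the other chromosome 19 genes were 651, 1469 and 257 kb. Those of the ZNF genes elsewhere were 894, 907 and 90.8 kb. The longer list of replicate 3 gave the shortest distances in every group of genes. Members were farther from a summit than the other genes of the chromosome in replicates 1 and 2, and nearer in replicate 3, so the libraries do not give a single order.

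RefSeq promoter windows, which fix the strand, matched 216 of the 246 members. Of the 24 members with both a summit and a window, 23 had the summit within 1 kb of an annotated start, the exception being ZNF628. ZNF471 and ZNF524 had no window. In 28 pairs of a member and a library, 23 summits lay within 250 bp of the start and none beyond 427 bp. In replicate 3 the median position was 162 bp after the start, with 13 of 17 summits on the transcribed side (76.5%). All coding genes reached in that list had a median of 101 bp after the start and 65.7% on that side. Replicate 1 had a median of 37 bp after the start over 7 pairs, and replicate 2 one of 50 bp before it over 4 pairs.

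**Figure D3:**
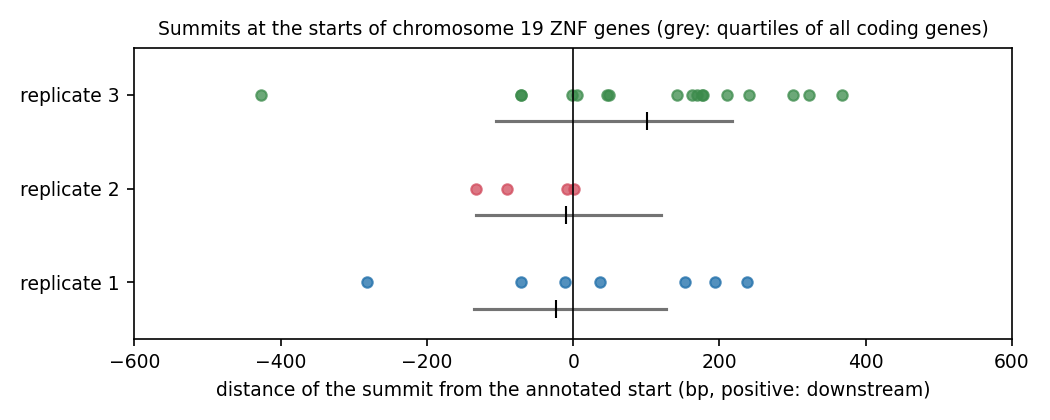
Distance of each summit from the nearest annotated start of a chromosome 19 ZNF gene, in bp, with positive values downstream, 1 row per library. Grey lines are the quartiles and black ticks the medians of all coding genes with a summit within 1 kb of a start. In replicate 3, 13 of 17 summits lie after the start, with a median of 162 bp.

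Summits at the members had lower median scores than those at other coding genes of chromosome 19. Over gene ends and annotated starts, 6 of the 26 chromosome 19 summits of replicate 1, 4 of 13 of replicate 2 and 20 of 68 of replicate 3 lay at a member, and 7 of these 30 also lay within 1 kb of another coding gene. The median score of the summits at members was 5.52, 4.6 and 4.86 in replicates 1 to 3. Those at other coding genes of the chromosome had medians of 7.43, 7.34 and 5.23, over 12, 4 and 38 summits. As percentiles within each list, members had medians of 41.0, 25.5 and 35.7, against 65.3, 71.8 and 43.0. Summits at the ends of coding genes over all chromosomes had medians of 44.5, 40.3 and 48.8. By gene ends alone, the summits at members had medians of 34.7, 21.2 and 33.8, over 3, 2 and 14 summits, below that level in each list. By ends and starts together, the members were lower than the chromosome's other genes in 3 of 3 libraries. The differences, members minus other coding genes, were -24.3, -46.3 and -7.28 percentile points in replicates 1 to 3. The largest set 4 summits against 4, and the smallest 20 against 38. The mean difference was -26.0 percentile points (SD 19.6, exact paired permutation p = 0.25, the smallest possible). Above the median score of their list were 2 of 6, 0 of 4 and 3 of 20 summits at members, so most lay below it. Their range reached no higher than 7.56, 4.87 and 6.81, and the highest scores at the chromosome's other coding genes were 22.4, 14.2 and 12.0. The ribosomal protein gene RPS19 gave the highest in replicates 1 and 2. In replicate 3 it scored 5.01, below the highest summit at a member.

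**Figure D4:**
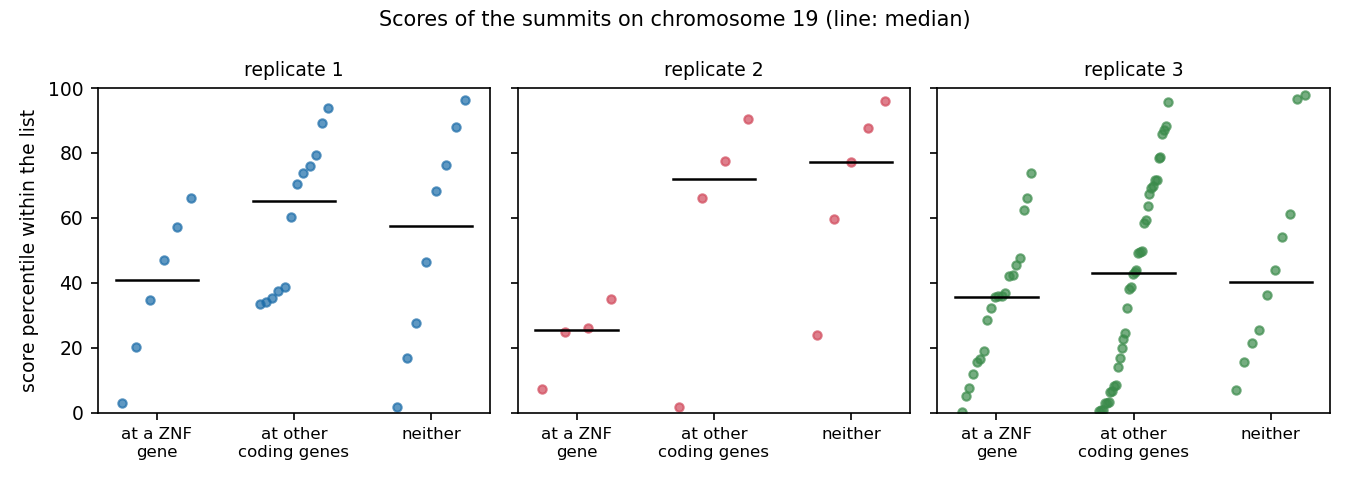
Score percentile, within its own list, of every chromosome 19 summit at a ZNF gene, at other coding genes only, or at neither, with 1 panel per library. Black lines are medians. Summits at ZNF genes have medians of 41.0, 25.5 and 35.7, below those at other coding genes in all 3 panels.

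The promoter windows of members, from 250 bp before to 50 bp after each start, were searched on both strands for 6 short words. The SOX core ACAAAG was in 11 of 27 windows with a summit within 1 kb of their start (40.7%) and in 48 of 241 without (19.9%). All coding genes had it in 13.6% of 22175 windows, and in 10.5% of those with a summit. Among the 11, the windows of ZNF43, ZNF443, ZNF587, ZNF675 and ZNF681 end before their summits, which lay 153 to 368 bp after the start. Many members from ZNF93 to ZNF254 held ACAAAG without a summit, and distances from these words to summits were not computed. The other SOX core, ACAATG, was in 1 of 27, 18 of 241 and 8.18% of all windows (5.6% of all with a summit). The word CCGGAAG, the core of sites of ETS factors, was in 48.1% of the windows with a summit, 39.8% of those without and 12.8% of all windows (20.9% of all with a summit). In the same order, ACTACAA was in 11.1%, 4.56% and 2.85% (3.39% of all with a summit). AAGATGGC, part of sites of YY1, was in 7.41%, 4.98% and 3.54% (5.54%), close to the level of all windows with a summit. TCTCGCGA was in 0%, 1.24% and 1.58% (6.18%). The 288 windows of ZNF genes elsewhere held ACAAAG in 17.0%, ACAATG in 9.03% and CCGGAAG in 28.5%. They held ACTACAA in 6.25%, AAGATGGC in 2.78% and TCTCGCGA in 1.04%. The words ACTACAA and ACAAAG or ACAATG can overlap by their shared ACAA. Several windows belong to 1 gene and some overlap, so these shares are descriptions of letters, not of bound sites.

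A longer stretch was chosen after the sequences had been seen. The promoters of ZNF420, ZNF829 and ZNF790 share the run ggactacatttcccagag, 18 bases long, and 7 of the 22175 coding windows hold it. Of these, 6 belong to members, and 1 to PLPP7 on chromosome 9. The members are ZNF850, ZNF790, ZNF829, ZNF568 and ZNF420, all in the group of 26 genes, and ZNF331. ZNF850 and ZNF331 had no summit within 1 kb of that start. The run was taken from genes with a summit, so how many of its windows have one was fixed by that choice. Its core with 2 open positions, ACTACANNTCCCAG, a form of the sites known for the factor ZNF143, was in 34 of the 268 member windows (12.7%). The other chromosome 19 genes had it in 1.33% of their windows, ZNF genes elsewhere in 4.51% and all coding genes in 1.38%. Among members it was in 6 of 27 windows with a summit (22.2%), 4 of them those with the run. It was in 28 of 241 without (11.6%), 2 of them with the run, and in 2.23% of all coding windows with a summit. The core was cut from the run, so its share in windows with a summit was partly fixed by the same choice. The replicate 1 summit of ZNF420 sits between 2 copies, 9 and 15 bp from the nearest base of each. ZNF790 has a copy 8 bp from its summit, and ZNF829 and ZNF527 each have one 39 bp away, the last on the opposite strand. ZNF317 has a copy 261 bp from its summit. Since ZNF829 and ZNF568 share their promoter region, their copy is the same one. Base composition differed little between members with and without a summit, with a median GC content of 61.0% against 59.7% and a median of 20 CpG in both.

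Partners of KRAB proteins formed a list of 17 corepressor genes. A gene end lay within 1 kb of a summit in 6 of them (35.3%, interval 14.2 to 61.7%), against 15.1% of all coding genes, and 2 of the 6 were reached by 2 libraries. TASOR, a subunit of the HUSH silencing complex, was reached at 66 bp by replicate 1 and at 226 bp by replicate 3 (scores 5.05 and 7.51). CBX3, which encodes a heterochromatin protein of the HP1 family, was reached at 114 bp by replicate 2 and at 97 bp by replicate 3 (scores 3.09 and 6.42). ATF7IP, the stabilising partner of SETDB1, and the HUSH gene PPHLN1 had a replicate 3 summit at 22 and 127 bp. The chromatin remodeller gene SMARCAD1 had a replicate 2 summit at 351 bp, and the HUSH-associated ATPase gene MORC2 a replicate 1 summit at 191 bp. TRIM28 itself, on chromosome 19, was 4344 bp from its nearest summit, in replicate 3, and SETDB1 was 83580 bp from its nearest. The rest of the list had no summit within 1 kb either. These were the HUSH gene MPHOSPH8 (nearest at 190685 bp), the HP1 genes CBX1 and CBX5, and HDAC1, HDAC2, CHD3, CHD4, DNMT1 and UHRF1. The difference between this list and the members was not tested.

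Of 18 other zinc finger genes of chromosome 19, with symbols such as ZFP, ZSCAN, ZIM, ZIK and ZBTB or PEG3, 2 had a summit, both of replicate 3 (11.1%, interval 1.38 to 34.7%, against 15.1% of all coding genes). They were ZFP14 at 183 bp, with a score of 2.8, and ZSCAN5A at 103 bp, with a score of 6.66. Neither gene was reached by a second library.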

How the data were processed

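SOX4 ChIP-seq was measured in 3 libraries of BT549 cells. The authors deposited 1 list of 1-bp summits per library, scored by −log10 p (or q; which of these is not given in the sources used here). BWA, SAMtools and MACS2 are named without versions or roles, per the submitters' processing notes. Although hg19 is named there, contig names and positions match GRCh38. Genes and promoter windows came from RefSeq tables of GRCh38.p14. Positions in that table for some KIR and LOC genes of chromosome 19 can be those of alternate loci.

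Distances ran from the nearer gene end, or from an annotated start, to the nearest summit, and 1 kb was the limit. Shares carry exact 95% intervals, and differences between gene groups were tested over libraries by exact sign permutation, in Python 3.11.15 with numpy 2.4.6, pandas 2.3.3 and scipy 1.17.1. Steps were tested on simulated data. Named genes are the members with 2 libraries, the 10 others with the highest score percentiles, the genes next to the 1 kb limit, up to 5 genes of each comparison group and the corepressors with a summit. The remaining members with a summit, the corepressors without one, ZFP14 and ZSCAN5A were named after their values were seen. The members and lists were chosen with earlier results of these data known. Annotated starts were planned as an alternative, and counting gene ends and starts together was added after the data were seen. No paper or control library was used here.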

Additional observations from a re-analysis of the deposited data

How the results depend on the processing

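No paired analysis of conditions was possible because the 3 libraries form 1 group, and the paired tests in the report pair gene groups within a library. With starts only, 7, 4 and 17 members were reached in replicates 1 to 3, and 5 by at least 2 libraries. Gene ends and starts together also gave 5. The count of members with at least 2 libraries was 2 with a window of 2 kb and 2 with 5 kb. It was 0 where all 3 libraries, or summits within 200 bp of each other, were required, 0 at or above the median score and 0 for the 1000 highest scores.

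At or above the median score, 1, 0 and 2 members remained in replicates 1 to 3 and 3 in any library. Median distances were then 2720 and 1057 kb in replicates 1 and 3, and the percentiles, now of summits above the median by construction, 66.2 and 64.3. The 1000 highest scores of each list gave 3 members in replicate 1, 0 in replicates 2 and 3, and 3 in any library. The lists hold 1368, 1713 and 4430 summits, so this limit was mildest in replicate 1 and strictest in replicate 3. The share of all coding genes was not computed for other windows or spacings, for score limits or with a library left out. The member counts under those settings therefore do not tell whether members fell more than all coding genes did.

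The difference from other chromosome 19 genes reversed to -0.479 percentage points at or above the median score and -0.313 for the 1000 highest scores. It also reversed, to -0.174, for genes with at least 2 libraries by gene ends. There 1 of 246 members (0.407%) stood against 7 of 1205 other genes (0.581%). With annotated starts added, at least 2 libraries reached 2.03% of members and 0.581% of the other genes, which was no reversal. The cause of the reversals was not tested. The difference from ZNF genes elsewhere kept its direction under every alternative run.

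Leaving out 1 library, members with any summit numbered 6 to 18, lowest without replicate 3, members with 2 libraries 0 to 1, and distinct summits 5 to 17. Counted by ends and starts, 11 members remained without replicate 3, against 26. No test could pass 0.05 with 3 libraries.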
